A study of Mus musculus with 6 samples.

Results

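The comparison set the H3K4 signal of the mouse cell line mK4 against that of the line mK3, gene by gene. Its members are 2 of the 6 libraries of the study, the chromatin immunoprecipitation libraries made with an antibody labelled H3K4, and all 21937 genes listed in the files. All genes were taken whatever their values, but these members and the gene lists below were chosen with earlier results of these data known. Both lines are labelled as immortalized lines from the metanephros, the embryonic kidney, of CD1 mouse embryos at stage E11.5. Neither a treatment nor the agent that immortalized the cells is given, and the labels do not say whether a line is 1 clone. Each line also has 1 library with an H3K27 antibody and 1 of input chromatin, which serves here as background. By its title, the study concerns histone methylation and the fate that nephron progenitors take. With 1 library a side there is no replicate and no test: each value describes these libraries, and a difference between them has no replicate check.

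Methyl groups on lysine 4 of histone H3 are laid down at promoters that are active or poised, where they spread from the start of a gene into its first exons. In the embryonic kidney, mesenchyme that receives an inductive signal condenses, turns epithelial and becomes the nephron, while neighbouring stromal cells stay mesenchymal. Genes of these states, among them Pax, Iroquois and Hox factors, Wnt and BMP signals and the Snail and Twist regulators of the mesenchymal state, are therefore those that a comparison of kidney lines is usually read by.

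The antibody label carries a limit. Neither the labels nor the files give the degree of methylation that the H3K4 antibody binds, and its stated catalogue number, ab8898, is generally known as that of an antibody against another mark, trimethylated lysine 9 of histone H3. The signal over own input was therefore looked at in gene classes where these marks are known to lie. Its median log2 ratio was 0.30 in mK4 and 0.41 in mK3 over the 83 cytosolic ribosomal protein genes in the files, and 0.25 in mK4 and 0.35 in mK3 over 48 proteasome genes, classes with active promoters in every cell. Over 359 Zfp zinc finger genes, whose clusters are a known place of lysine 9 trimethylation, it was −0.02 in mK4 and −0.06 in mK3. Over 27 housekeeping genes it was 0.01 in mK4 and 0.20 in mK3. The ribosomal and proteasome genes lay above input in both lines and the Zfp genes in neither. The housekeeping genes lay above it in mK3 and near it in mK4. These class medians were not a test of which mark the antibody bound. The libraries are called H3K4 here because they are labelled so.

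Reads were counted per gene over exons, so signal upstream of the first exon is not in the counts. The H3K4 counts summed to 714011 reads in mK4 and 595305 in mK3, with a median of 23 reads per gene row in mK4 and 19 in mK3. The inputs summed to 386695 reads in mK4 and 311409 in mK3. Each count was divided by the sum of its library. Intervals in parentheses are exact 95% Clopper-Pearson intervals of a ratio of such shares, and they cover counting error only. A gene was called higher or lower when the ratio passed 2-fold after a pseudocount of 5 scaled reads was added on both sides, which understates differences of genes with few reads. Of the 21937 genes, 16233 had at least 20 H3K4 reads over both libraries together and could be called, and 5704 could not.

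The RefSeq promoters of 4 transcription factor genes called in the comparison are shown here, 2 for each direction, Irx2 and Sox11 with more signal in mK4 and Twist1 and Sox12 with more in mK3. Each runs from 250 bases before the start of the gene to 50 after it, in the table's build GRCm38.p6, 5′ to 3′ on the strand of the gene, and capitals mark CpG dinucleotides, which are dense at the promoters where H3K4 methylation is usually found. Irx2 lies at chr13:72628570-72628869 on the plus strand and Sox11 at chr12:27342669-27342968 on the minus strand. Twist1 lies at chr12:33957421-33957720 on the plus strand and Sox12 at chr2:152397997-152398296 on the minus strand.
Irx2: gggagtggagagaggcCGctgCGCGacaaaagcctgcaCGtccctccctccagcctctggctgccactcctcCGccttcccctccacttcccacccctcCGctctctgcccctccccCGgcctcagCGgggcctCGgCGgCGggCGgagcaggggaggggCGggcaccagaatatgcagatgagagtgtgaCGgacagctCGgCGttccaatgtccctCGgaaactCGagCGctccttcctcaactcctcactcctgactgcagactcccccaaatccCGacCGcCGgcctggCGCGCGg
Sox11: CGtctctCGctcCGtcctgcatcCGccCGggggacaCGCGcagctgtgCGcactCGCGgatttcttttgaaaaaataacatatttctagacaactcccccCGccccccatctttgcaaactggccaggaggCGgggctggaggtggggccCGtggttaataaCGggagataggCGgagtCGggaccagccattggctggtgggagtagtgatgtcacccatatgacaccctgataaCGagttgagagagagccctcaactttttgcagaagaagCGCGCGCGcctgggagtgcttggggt
Twist1: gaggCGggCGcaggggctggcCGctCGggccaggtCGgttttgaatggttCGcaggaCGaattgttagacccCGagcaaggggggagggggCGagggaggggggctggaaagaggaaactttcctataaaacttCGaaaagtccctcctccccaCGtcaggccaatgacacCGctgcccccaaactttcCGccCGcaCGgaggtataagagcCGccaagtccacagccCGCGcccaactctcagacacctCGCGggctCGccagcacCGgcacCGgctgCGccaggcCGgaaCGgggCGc
Sox12: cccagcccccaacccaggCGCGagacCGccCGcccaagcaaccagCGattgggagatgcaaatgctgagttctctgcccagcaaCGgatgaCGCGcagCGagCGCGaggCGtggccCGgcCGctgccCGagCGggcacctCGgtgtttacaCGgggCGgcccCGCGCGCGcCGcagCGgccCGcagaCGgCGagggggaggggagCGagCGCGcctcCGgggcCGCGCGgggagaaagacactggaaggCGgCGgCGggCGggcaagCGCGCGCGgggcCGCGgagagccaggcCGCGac

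A CpG is the motif CG, which reads the same on both strands. The Irx2 window held 25, a number reached by 18.4% of the 32851 promoter entries of the same length, against a median of 7 per entry. Sox11 held 21, reached by 24.8% of entries, and Twist1 held 27, reached by 15.5%. Sox12 held 47, reached by 1.44%. All 4 windows were thus richer in CpG than the middle entry, on both sides of the comparison. The counts below come from exons, so no read is placed on these letters.

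Across all genes that could be called, 845 (5.21%) passed 2-fold towards mK4 and 520 (3.2%) passed it towards mK3. The median log2 ratio was −0.05, and the central 90% of genes lay between −0.87 and 1.01. Most genes therefore differed by less than 2-fold, and the calls were the tails on both sides. The shares of 5.21% and 3.2% are the background for each count of called list members given below.

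The inputs moved with these calls. Of the 845 higher genes, 749 (88.6%) had an input ratio of the same sign and 386 had input itself at least 2-fold higher in mK4, against 7.68% of all callable genes. Of the 520 lower genes, 403 (77.5%) had an input ratio of the same sign and 116 had input at least 2-fold lower, against 6.27% of all callable genes. The calls were concentrated on a few chromosomes: 585 of the 845 higher genes (69.2%) lay on chromosomes 3, 7 and X, which hold 15.3% of the genes that could be called. On chromosome 3 the median log2 ratio was 0.80 in H3K4 and 0.83 in input, and on chromosome 7 it was 0.52 in H3K4 and 0.51 in input. Chromosome 14 lay on the other side, with 78 genes lower and 1 higher, a median H3K4 ratio of −0.53 and a median input ratio of −0.54. On these chromosomes the H3K4 and input medians lay close together, and the part of the chromatin background in each call was not tested.

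**Figure D1:**
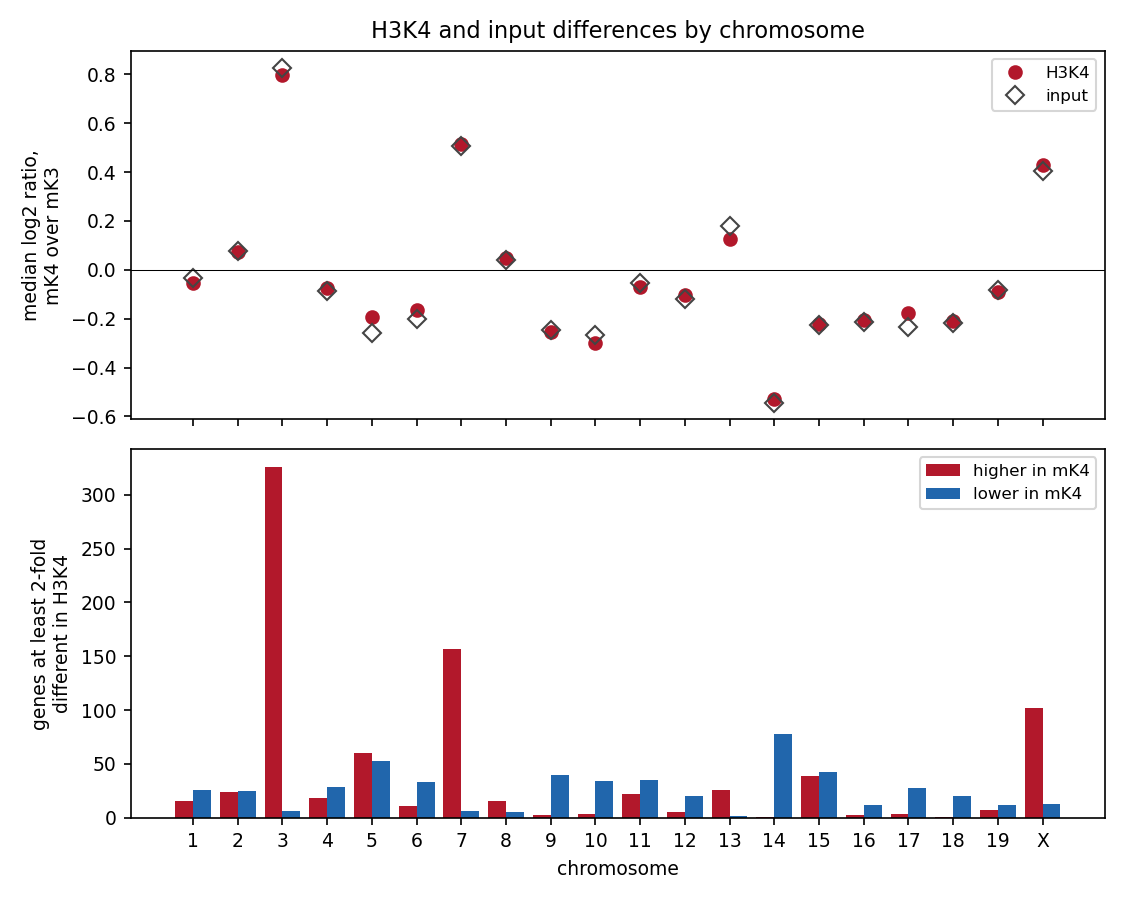
Upper panel: median log2 ratio, mK4 over mK3, of each chromosome's genes in H3K4 (circles) and input (diamonds), in which chromosomes 3, 7 and X lie above 0 and chromosome 14 below it in both. Lower panel: number of genes at least 2-fold higher (red) or lower (blue) in mK4, with 326 higher on chromosome 3 and 78 lower on chromosome 14.

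For this reason each ratio was also formed after subtracting the gene's own log2 input ratio, and again after subtracting the input ratio of its 10 neighbours on each side. Own input carries few reads per gene and adds counting error, and neighbour input carries many reads but misses what is peculiar to the gene. The first subtraction gave 1118 higher genes (6.89%) and 1120 lower ones (6.9%), among which 167 (1.03%) and 176 (1.08%) had also been called on the plain ratio. The second gave 393 higher (2.44%) and 360 lower (2.24%) of the 16103 genes with neighbours. Past 2-fold in the same direction in all 3 forms were 74 genes higher (0.46%), spread over 19 chromosomes, and 82 lower (0.509%), spread over 18. Of these, 48 of the 74 and 42 of the 82 had only 20 to 49 H3K4 reads over both libraries together, where intervals are wide. Asking for all 3 forms together was chosen after the values had been seen. Over the 74 genes the median log2 ratio of H3K4 over own input was 0.60 in mK4 and −1.08 in mK3. Over the 82 genes it was −0.79 in mK4 and 0.73 in mK3. In each set the line with less signal thus lay below its own sparse input at the median, which follows in part from this choice. These sets are small beside the 845 and 520 calls. Input reads are given for many genes below but not for all, and a call given without them is one on the plain ratio unless stated otherwise.

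**Figure D2:**
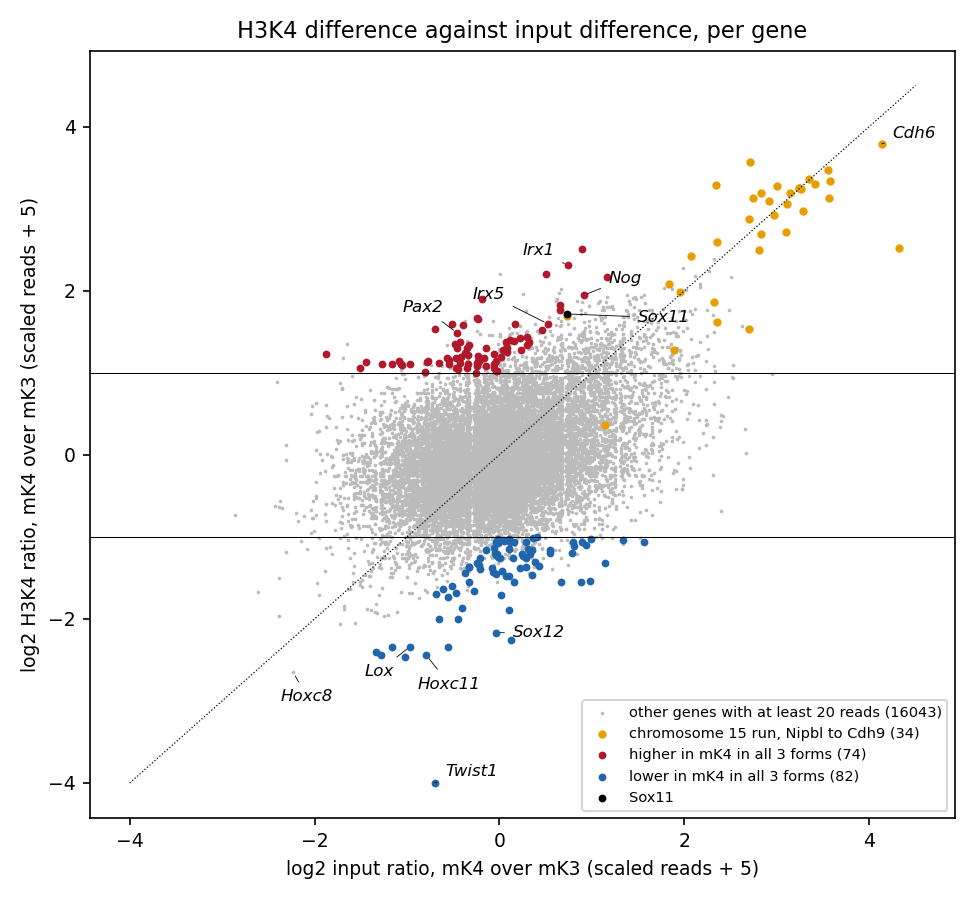
Log2 ratio of H3K4 signal, mK4 over mK3 (vertical axis), against the same log2 ratio in input (horizontal axis), 1 point per gene with at least 20 H3K4 reads; solid lines mark 2-fold and the dotted line marks equal ratios. Red points are the 74 genes higher and blue points the 82 lower in mK4 as the plain ratio and with either input subtracted, the chromosome 15 run (yellow) lies along the dotted line at the upper right, and Twist1 lies lowest.

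Outside the chromosome 15 run described further on, which holds the largest ratios, several factors of the induced nephron were among the genes higher in mK4. Irx1, an Iroquois homeodomain factor of the developing nephron, had 75 H3K4 reads in mK4 and 8 in mK3. Its input had 15 reads in mK4 and 6 in mK3. The H3K4 share was 7.82 times as high in mK4 (3.77 to 18.8), against an input ratio of 2.01, and Irx1 passed 2-fold in all 3 forms. In such libraries, here and below, more cells that carry a mark and more of the mark per cell cannot be told apart. Irx5 had 141 reads in mK4 and 35 in mK3, with 32 input reads in mK4 and 17 in mK3. Its share was 3.36 times as high in mK4 (2.31 to 5.01), and it passed 2-fold in all 3 forms too. Irx2, the neighbour of Irx1 on chromosome 13, had 71 reads in mK4 and 18 in mK3, with 19 input reads in mK4 and 14 in mK3. Its share was 3.29 times as high in mK4 (1.94 to 5.86). It stayed past 2-fold with own input subtracted, at a log2 ratio of 1.34, and reached 0.99 with neighbour input subtracted.

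Irx4 had 17 reads in mK4 and 4 in mK3, a ratio of 3.54 with a wide interval (1.16 to 14.5). Irx3 had 45 reads in mK4 and 37 in mK3, and Irx6 had 10 in mK4 and 13 in mK3. All 3 Iroquois genes of the cluster on chromosome 13, Irx1, Irx2 and Irx4, were called higher, while on chromosome 8 Irx5 was and Irx3 and Irx6 were not. In all, 4 of 6 Iroquois genes were higher and none lower, against 5.21% higher and 3.2% lower over all callable genes. Their median log2 ratio was 1.24 in H3K4 and 0.38 in input, against −0.05 in H3K4 over all genes.

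Pax2 and Pax8, paired-box factors that the nephron lineage needs to form, were the 2 Pax genes called among 7, and both passed in all 3 forms. Pax2 had 26 H3K4 reads in mK4 and 4 in mK3, while input had 8 in mK4 and 10 in mK3. The H3K4 share was 5.42 times as high in mK4 (1.88 to 21.4). Against own input the Pax2 signal was 0.60 on the log2 scale in mK4 and −1.35 in mK3, below background. Pax8 had 64 reads in mK4 and 20 in mK3, over input of 24 reads in mK4 and 19 in mK3, a ratio of 2.67 (1.59 to 4.65). For both genes the input ratio was close to 1 or below it, at 1.02 for Pax8 and 0.644 for Pax2. Over the 7 Pax genes the median was 0.39 in H3K4 and −0.15 in input, and it was −0.18 with own input subtracted and 0.53 with neighbour input subtracted.

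Beside the 5.21% higher and 3.2% lower over all callable genes, the list of induced nephron genes held 8 higher members of 20. These were Pax8, Lef1, Irx1, Irx2, Cdh6, Ccnd1, Pou3f3 and Lfng, and 1 member was lower, Bmper. The median log2 ratio of the list was 0.58 in H3K4, 0.26 in input, 0.22 with own input subtracted and 0.42 with neighbour input subtracted. Of the 8, Irx1 and Pax8 passed in all 3 forms. Lef1, a nuclear partner of Wnt signalling, had 186 reads in mK4 and 50 in mK3, and its share was 3.10 times as high in mK4 (2.26 to 4.33). Its input had 46 reads in mK4 and 13 in mK3, and with own input subtracted its log2 ratio was 0.21. Lfng, a sugar transferase that modifies Notch receptors, behaved likewise, with 173 reads in mK4 and 57 in mK3 and a log2 ratio of 0.11 with own input subtracted. Pou3f3, a POU factor of the loop of Henle, had 42 reads in mK4 and 7 in mK3. Its ratio was 5.0 (2.23 to 13.2), with 15 input reads in mK4 and 4 in mK3 and a log2 ratio of 0.57 with own input subtracted. Ccnd1, the G1 cyclin D1, had 100 reads in mK4 and 37 in mK3, and lies on chromosome 7. With own input subtracted, Irx1, Irx2 and Pax8 stayed past 2-fold and the other 5 did not.

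Nephron progenitor factors did not move together. Of 16 that could be called, Pax2 and Uncx were higher and Six2 and Hoxc11 lower, and the median was −0.09. Six2, the factor that holds progenitors in the undifferentiated state, had 13 reads in mK4 and 28 in mK3, with 10 input reads in mK4 and 6 in mK3. Its share was 2.58 times as high in mK3 (1.29 to 5.43). The counts behind Six2 are small. Its input was higher in mK4, so it stayed past 2-fold with own input subtracted, but its neighbour-subtracted log2 ratio was −0.84.

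Signals and their inhibitors gave single genes. Nog, which encodes the secreted BMP antagonist noggin, had 149 reads in mK4 and 28 in mK3. Its input had 36 reads in mK4 and 14 in mK3. The share was 4.44 times as high in mK4 (2.95 to 6.90), and all 3 forms passed. It was the only higher one of 11 BMP antagonists, among which Fstl3 and Bmper were lower. Bmper had 36 reads in mK4 and 87 in mK3, with input lower in mK4 as well (15 reads in mK4 and 29 in mK3). With own input subtracted neither stayed past 2-fold, at log2 ratios of 0.20 for Fstl3 and −0.29 for Bmper.

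Bmp6, a BMP ligand, had 48 reads in mK4 and 15 in mK3, a ratio of 2.67 (1.47 to 5.13), while Bmp4 was lower with 16 in mK4 and 35 in mK3. With own input subtracted the log2 ratio was 1.49 for Bmp6 and −0.45 for Bmp4. Among 21 BMP and TGF-beta ligands 2 were higher and 3 lower. Of 18 Wnt ligands none was called in either direction on the plain ratio. Of 24 Frizzled receptors, Wnt antagonists and related genes Lef1 was higher, and Fzd2, Fzd3, Fzd8 and Sfrp2 were lower. Fzd8, a Wnt receptor, had 29 reads in mK4 and 70 in mK3, and 17 input reads in mK4 and 30 in mK3. In the Notch pathway Notch2 and Lfng were higher among 14 receptors, ligands and modifiers, and none of 8 Hes and Hey target genes was called, with a median of 0.48. Notch2, a receptor needed for proximal nephron fates, had 259 reads in mK4 and 56 in mK3, but 168 input reads in mK4 and 49 in mK3. It lies on chromosome 3, and its log2 ratio with own input subtracted was 0.43.

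Several genes outside the kidney lists passed in all 3 forms, and apart from Socs2 and Cyp2c44 they were chosen after their values were seen. Socs2, a feedback inhibitor of cytokine receptors, had 54 reads in mK4 and 11 in mK3, with 20 input reads in mK4 and 14 in mK3, a ratio of 4.09 (2.12 to 8.68). Mfhas1 rested on more reads, 291 in mK4 and 90 in mK3, with 63 input reads in mK4 and 48 in mK3. Its ratio was 2.70 (2.12 to 3.45), against 1.06 in input. Pdgfb, a platelet-derived growth factor chain, had 119 reads in mK4 and 39 in mK3, a ratio of 2.54 (1.76 to 3.75) against 0.952 in input. Tnfrsf21, a death receptor, had 63 in mK4 and 16 in mK3, a ratio of 3.28 (1.87 to 6.09). Cyp2c44, a cytochrome P450 gene, had 53 in mK4 and 10 in mK3, with 13 input reads in each line. The input ratio of these genes lay between 0.805 and 1.21, which follows in part from choosing genes that passed with input subtracted.

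Sox11, a SoxC transcription factor of progenitor cells, had the most reads of these genes. It had 422 in mK4 and 103 in mK3, with 89 input reads in mK4 and 42 in mK3. Its share was 3.42 times as high in mK4 (2.75 to 4.28). The log2 ratio was 1.72 as it stood, 0.99 with own input subtracted and 2.00 with neighbour input subtracted, so it missed 2-fold with own input subtracted. Its relative Sox12 lay at the other end, with 25 reads in mK4 and 114 in mK3, and 35 input reads in mK4 and 29 in mK3. The Sox12 share was 5.47 times as high in mK3 (3.52 to 8.80), with an input ratio of 0.972, and it was lower in all 3 forms. Sox11 and Sox12 were the only ones called among 16 Sox genes.

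Bcl2l1, the gene of the survival protein BCL-XL, had 163 reads in mK4 and 35 in mK3, a ratio of 3.88 (2.68 to 5.77). Its input was sparse and also higher, with 27 reads in mK4 and 8 in mK3, and the log2 ratio with own input subtracted was 0.63. Mcl1, another survival gene of this family, had 449 reads in mK4 and 143 in mK3 and lies on chromosome 3. Its input had 122 reads in mK4 and 33 in mK3, which left a log2 ratio of −0.14. Bcl2l2 was lower, with 28 in mK4 and 60 in mK3, so that 2 members were higher and 1 lower of 14.

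**Figure D3:**
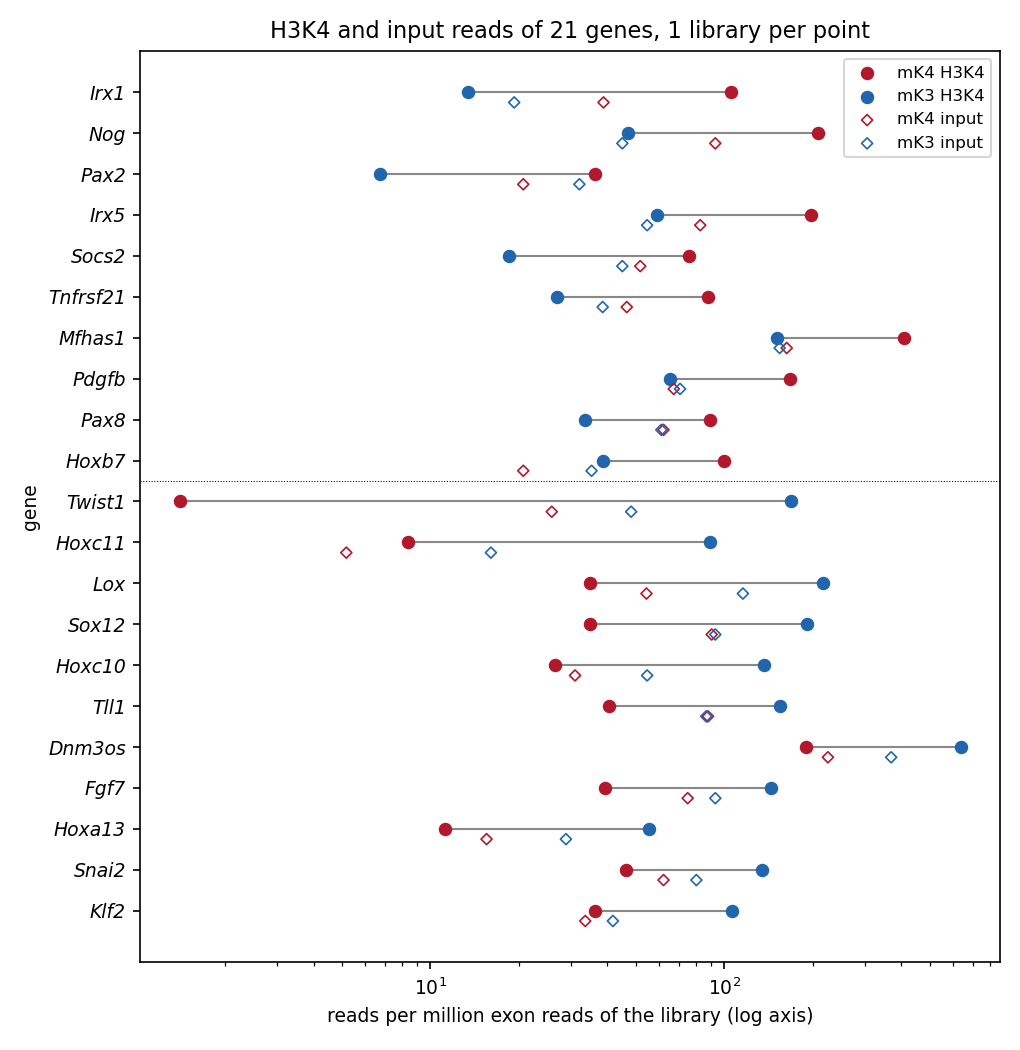
H3K4 reads (filled circles) and input reads (open diamonds) scaled to the exon reads of the library (RPM), on a log axis, for 21 genes past 2-fold in all 3 forms, with mK4 in red and mK3 in blue and 1 library per point. Above the dotted line mK4 H3K4 lies right of mK3 H3K4 for each gene, from Irx1 to Hoxb7, and below it mK4 lies left of mK3, most widely for Twist1 with 1 read in mK4 and 100 in mK3.

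On the lower side, factors of the mesenchymal state were among the genes called. Twist1, a basic helix-loop-helix factor that drives the epithelial to mesenchymal transition, had 1 H3K4 read in mK4 and 100 in mK3. Its input had 10 reads in mK4 and 15 in mK3. The share was 120 times as high in mK3, with an interval from 21.0 to 4784 because 1 library held a single read. Against own input the H3K4 signal was −1.68 on the log2 scale in mK4, below background, and 1.62 in mK3. Twist1 had the lowest log2 ratio of all callable genes, −4.0, and passed in all 3 forms.

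Snai2, the Slug repressor, had 33 reads in mK4 and 80 in mK3 over nearly equal input, 24 in mK4 and 25 in mK3. Its share was 2.91 times as high in mK3 (1.92 to 4.5). Snai1, the Snail repressor, had 20 reads in mK4 and 40 in mK3, a ratio of 2.40 towards mK3 (1.37 to 4.33), with 11 input reads in mK4 and 8 in mK3. Both passed in all 3 forms. Prrx1, a mesenchymal homeobox factor, had 67 reads in mK4 and 158 in mK3, and its log2 ratio was −1.41, or −0.81 with own input subtracted. Of 13 factors of this transition 4 were lower and none higher, against 3.2% lower over all callable genes. Lower in all 3 forms were 3 of them, against 0.509% of the callable genes with neighbours. The median log2 ratio of the 13 was −0.49 in H3K4 and −0.36 in input.

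Matrix genes of mesenchymal cells followed in part. Lox, the lysyl oxidase that crosslinks collagen, had 25 reads in mK4 and 129 in mK3, with 21 input reads in mK4 and 36 in mK3. Its share was 6.19 times as high in mK3 (4.01 to 9.92), and it passed in all 3 forms. Tll1, a tolloid-like protease that matures procollagen, had 29 reads in mK4 and 92 in mK3, a ratio of 3.81 towards mK3 (2.48 to 5.99) with an input ratio of 1.01. Col1a1, the main chain of type I collagen, had 47 reads in mK4 and 164 in mK3. Its input was lower in mK4 as well, 32 reads against 70 in mK3, and the log2 ratio was −1.92 as it stood and −0.57 with own input subtracted. Among 41 collagens Col1a1 was the only lower one, and 5 were higher, of which Col9a1 passed in all 3 forms with 41 reads in mK4 and 11 in mK3. Col24a1 and Col25a1, also among the 5, lie on chromosome 3. With own input subtracted 2 collagens were higher and 1 lower, and with neighbour input subtracted 1 was higher and 1 lower.

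Of 25 matrix metalloproteinases and their inhibitors 5 were lower and none higher, against 3.2% lower over all callable genes. Their median was −0.30 in H3K4 and −0.17 in input, and with own input subtracted 3 were lower and 3 higher. Mmp14, the membrane-bound collagenase, had 29 reads in mK4 and 86 in mK3, a ratio of 3.56 towards mK3 (2.31 to 5.62), and lies on chromosome 14. Its log2 ratio was −0.94 with own input subtracted and −1.14 with neighbour input subtracted. Mmp16, Mmp19, Mmp8 and the inhibitor Timp2 were the others, with between 9 and 37 reads in mK4 and between 22 and 70 in mK3. The list of 20 mesenchymal surface and matrix genes as a whole stayed near 0, at a median of −0.06, with Lox and Acta2 lower.

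Fgf7, a growth factor that mesenchyme sends to epithelium, had 28 reads in mK4 and 86 in mK3 over 29 input reads in each line. Its share was 3.68 times as high in mK3 (2.38 to 5.86), in all 3 forms. Tll1 above and the following genes of all 3 forms were chosen after their values were seen, apart from those of a list. Cald1, an actin-binding caldesmon, had 36 in mK4 and 93 in mK3 with more input in mK4 (44 reads) than in mK3 (27 reads). Tgfb1i1, a focal adhesion protein, had 31 in mK4 and 58 in mK3. En1, an engrailed homeobox factor, had 15 in mK4 and 55 in mK3. Dnm3os had 135 in mK4 and 379 in mK3. It overlaps Dnm3 on the other strand, and chromatin reads of Dnm3os cannot be told from those of Dnm3.

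Renal stroma genes held 2 lower members of 15 and none higher, against 3.2% lower over all callable genes. Their median was −0.41 in H3K4 and −0.34 in input. The 2 lower genes were Meis1, a stromal homeobox cofactor, with 29 reads in mK4 and 90 in mK3, and Rarb, a retinoic acid receptor, with 12 in mK4 and 50 in mK3. With own input subtracted the log2 ratio was −0.89 for Meis1 and −0.49 for Rarb. Foxd1, the defining stromal factor, had 131 reads in mK4 and 95 in mK3, a log2 ratio of 0.19, and was not called.

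The Hox clusters differed from each other. HoxC held 5 lower genes of 9, Hoxc8, Hoxc9, Hoxc10, Hoxc11 and Hoxc13, against 3.2% lower over all callable genes. No HoxC ratio was positive, and the median log2 ratio was −1.25 in H3K4 and −0.79 in input. Hoxc11, one of the posterior Hox factors, had 6 reads in mK4 and 53 in mK3 and only 2 input reads in mK4 and 5 in mK3. Its share was 10.6 times as high in mK3 (4.56 to 30.2). Hoxc10 had 19 reads in mK4 and 81 in mK3, with 12 input reads in mK4 and 17 in mK3, a ratio of 5.11 towards mK3 (3.07 to 8.93). Hoxc10 and Hoxc11 were lower in all 3 forms. Hoxc8 had 10 reads in mK4 and 83 in mK3, but its input went the same way with 10 reads in mK4 and 49 in mK3. Its log2 ratio was −2.65 as it stood, −0.42 with own input subtracted and −2.04 with neighbour input subtracted. The HoxC calls thus came with a lower median input in mK4, and 2 of 5 held whichever input was used.

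HoxB lay on the other side, with 3 higher genes of 10 and none lower, against 5.21% higher over all callable genes. Its median was 0.36 in H3K4 and 0.07 in input. Hoxb7, which is expressed in the nephric duct and ureteric bud, had 71 reads in mK4 and 23 in mK3, with 8 input reads in mK4 and 11 in mK3. Its share was 2.57 times as high in mK4 (1.59 to 4.32), in all 3 forms. Hoxb9 had 109 reads in mK4 and 31 in mK3, and Hoxb5 had 63 in mK4 and 23 in mK3. The Hoxb9 input had 39 reads in mK4 and 16 in mK3, and the Hoxb5 input had 24 in mK4 and 14 in mK3. With own input subtracted their log2 ratios were 0.54 and 0.63, and with neighbour input subtracted 1.46 and 1.01. HoxA had Hoxa10 and Hoxa13 lower among 11 genes. Hoxa10 carried the most reads, 345 in mK4 and 757 in mK3, with input of 175 in mK4 and 322 in mK3 and a log2 ratio of −0.20 with own input subtracted. Hoxa13 had 8 reads in mK4 and 33 in mK3 and passed in all 3 forms. None of the 6 callable HoxD genes of 9 was called.

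Other families of developmental factors gave a few calls each. Among 38 forkhead genes Foxa3, Foxf1a and Foxr2 were higher. Dlx2, Dlx5 and Msx1 were lower among 9 Dlx and Msx homeobox genes. Dlx2 had 28 reads in mK4 and 107 in mK3, with 13 input reads in mK4 and 28 in mK3. Its log2 ratio was −0.75 with own input subtracted and −1.96 with neighbour input subtracted. Msx1 had 5 reads in mK4 and 33 in mK3, but with 1 input read in mK4 and 17 in mK3 its log2 ratio turned to 0.42 with own input subtracted. Gata4 and Gata6 were lower among 5 GATA genes, and neither passed with own input subtracted. Gata6 had 28 reads in mK4 and 85 in mK3, over 10 input reads in mK4 and 31 in mK3.

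The lower genes of the top ranks that belong to no list were of mixed kinds. Wbscr17, a gene of a glycosyltransferase, had 11 reads in mK4 and 77 in mK3. Adra1d, an alpha-1 adrenergic receptor, had 16 in mK4 and 91 in mK3. Sepp1, the plasma selenoprotein P, had 8 in mK4 and 44 in mK3, and Nfatc4, a calcium-responsive transcription factor, had 13 in mK4 and 55 in mK3. These 4 passed in all 3 forms, with ratios towards mK3 between 5.07 and 8.40. Thbd, the thrombin receptor thrombomodulin, had 24 reads in mK4 and 101 in mK3, but its input was lower as well, with 16 in mK4 and 44 in mK3. Brca2 had 60 in mK4 and 206 in mK3, with 42 input reads in mK4 and 89 in mK3. Zfp503 had 68 in mK4 and 231 in mK3, with 32 input reads in mK4 and 59 in mK3. With own input subtracted the log2 ratios of Thbd, Brca2 and Zfp503 were −0.49, −0.60 and −0.82.

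The largest ratios in favour of mK4 came from a run of 35 neighbouring genes on chromosome 15, from Nipbl to Cdh9. Of 34 that could be called, 33 were higher, and the 15 top-ranked higher genes of at least 50 reads were all from this run. Cdh6, a cadherin of the early nephron and one of the induced nephron list, had 421 H3K4 reads in mK4 and 20 in mK3. Its share was 17.6 times as high in mK4 (11.2 to 29.0), but input had 259 reads in mK4 and 9 in mK3, 23.2 times as high. Prlr, the prolactin receptor, had 1271 reads in mK4 and 98 in mK3, and 831 input reads in mK4 and 63 in mK3. Golph3, a Golgi membrane protein, had 855 reads in mK4 and 68 in mK3, and 273 input reads in mK4 and 41 in mK3. The median log2 ratio of the run was 3.01 in H3K4 and 2.87 in input. With own input subtracted it was −0.04, ranging from −1.81 for Ranbp3l to 0.97, and no gene of the run stayed past 2-fold. The other top-ranked genes here were Mtmr12, Slc45a2, Pdzd2, Rai14, Zfr, Adamts12, Tars, Rxfp3, Slc1a3, Drosha, Rad1 and Amacr, and none of these passed 2-fold with own input subtracted.

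Gene families on the chromosomes with higher input in mK4 also held calls. The alcohol dehydrogenase cluster of chromosome 3 had 4 higher genes of 7 and a median log2 ratio of 1.11, with 0.66 in input and −0.12 once neighbour input was subtracted. Of 20 imprinted genes, which are expressed from 1 parental copy, 4 were higher and none lower, among them Igf2, Peg3 and Usp29. Those 3 lie on chromosome 7. Usp29 had 80 reads in mK4 and 14 in mK3, with 43 input reads in mK4 and 18 in mK3. Its log2 ratio was 1.87 as it stood, 1.03 with own input subtracted and 0.81 with neighbour input subtracted. Cd53, Lpar3 and Alpk1 on chromosome 3 showed the same pattern: each was past 2-fold with own input subtracted and under it with neighbour input subtracted. Neurog2, higher with 79 reads in mK4 and 23 in mK3, was the only neural marker called and also lies on chromosome 3.

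**Figure D4:**
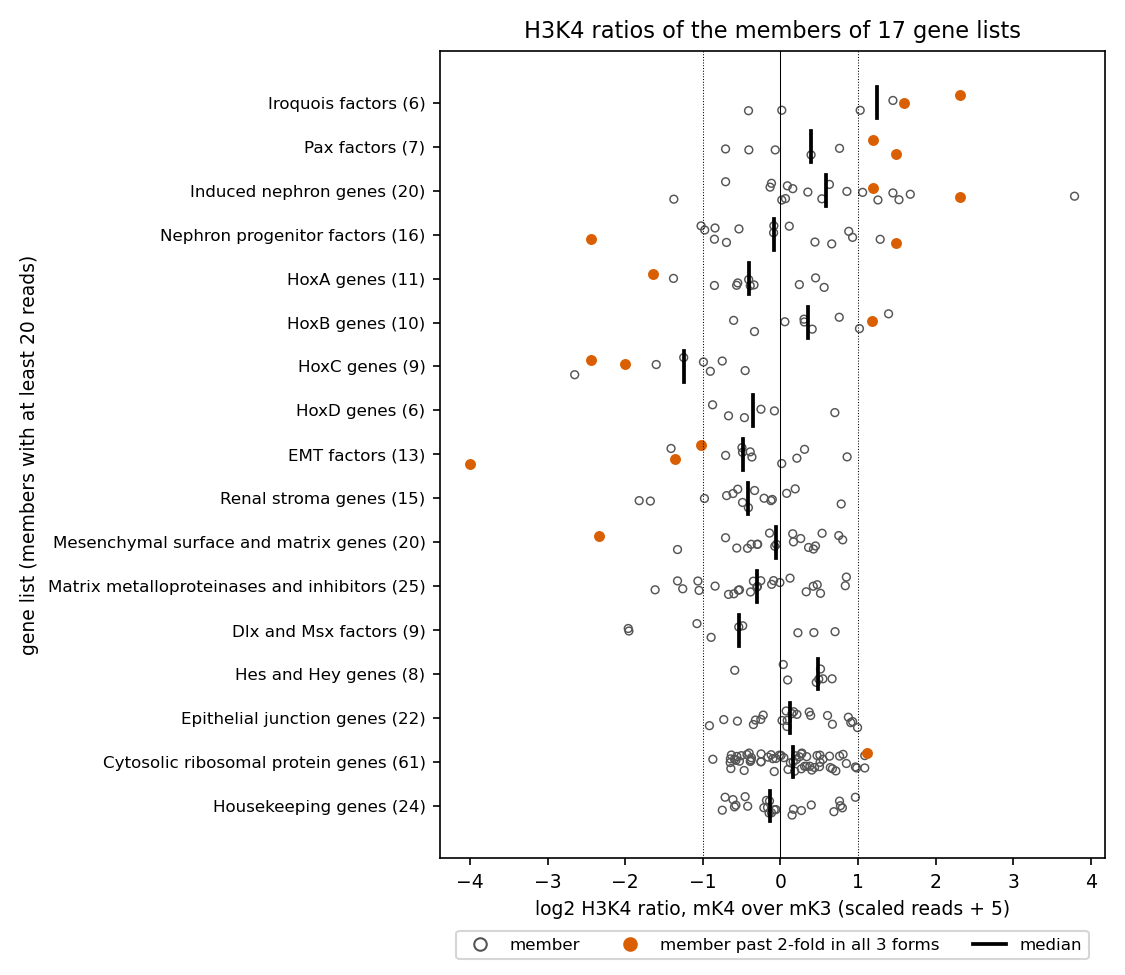
Log2 H3K4 ratio, mK4 over mK3, of each member with at least 20 reads of 17 gene lists (number of such members in brackets), with bars at list medians, dotted lines at 2-fold and filled points for members past 2-fold in all 3 forms. The median of the Iroquois list lies farthest right at 1.24 and that of the HoxC list farthest left at −1.25.

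Several large classes did not differ as a whole on the plain ratio. None of 24 housekeeping genes and none of 22 epithelial junction genes was called, at medians of −0.13 and 0.12. Of 61 cytosolic ribosomal protein genes 3 were higher and none lower, and of 62 mitochondrial ribosomal protein genes 1 was higher and 2 lower. Of 337 Zfp genes 27 (8.01%) were higher and 6 lower, with a median of 0.07, and 77 of the 337 lie on chromosome 7. With own input subtracted 27 Zfp genes were higher and 21 lower. With neighbour input subtracted 7 were higher and 6 lower, against 2.44% and 2.24% over all callable genes with neighbours. Of 58 clustered protocadherins 2 were lower, at a median of −0.32, while their input median was −0.97. With own input subtracted 12 were higher and 1 lower, against 6.89% and 6.9% over all callable genes, and the median was 0.46. With neighbour input subtracted 5 protocadherins were higher and none lower, at a median of 0.58. Only 70 of 1126 olfactory receptor genes had enough reads to be called, and of those 3 were higher and 6 lower. Of 44 proteasome genes 4 were higher and 2 lower, and the 4 were Psmb4 and Psma5 on chromosome 3, Psmg3 on chromosome 5 and Psmb7 on chromosome 2.

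Counted by the stem of the gene symbol, 190 families had at least 10 callable genes. The counts that follow stand beside the 5.21% higher and 3.2% lower over all callable genes. With own input subtracted these shares were 6.89% and 6.9%, and with neighbour input subtracted 2.44% and 2.24%. The Pou homeobox family held 3 higher genes of 11 (27.3%) and none lower, with a median of 0.15 in H3K4 and 0.49 in input. With own input subtracted 1 Pou gene was higher and 2 were lower. The Fzd receptors, which bind Wnt ligands, held 3 lower genes of 10 (30.0%) and none higher, with a median of −0.65 in H3K4 and −0.48 in input, and none was lower with own input subtracted. The Mmp proteases held 4 lower genes of 21 (19.05%) and none higher, with a median of −0.30 in H3K4 and −0.21 in input. With own input subtracted 2 Mmp genes were lower and 3 were higher. Solute carriers, a list of 315 callable membrane transporters, held 11 higher and 7 lower, both shares under those of all genes on the plain ratio. With own input subtracted 17 of them were higher and 37 lower. Slc43a3 was lower in all 3 forms with 5 reads in mK4 and 42 in mK3. Of 35 callable keratins 3 were higher and 2 lower on the plain ratio. With own input subtracted 8 keratins were higher and 2 lower, and with neighbour input subtracted 5 were higher and none lower. Of 20 FGF ligands and receptors 2 were higher and 3 lower. Of 14 T-box factors 1 was higher and 2 lower, of 10 LIM homeobox factors 1 was lower, and of 26 Klf and Sp factors 1 was lower. That last gene was Klf2, a flow-responsive zinc finger factor, with 26 reads in mK4 and 63 in mK3 over 13 input reads in each line. Its share was 2.91 times as high in mK3 (1.81 to 4.78), in all 3 forms. Of 31 genes for Polycomb proteins and H3K4 methylation enzymes, Kdm5c was higher and Phc1 lower, and Kdm5c lies on the X chromosome. None of 14 cell cycle inhibitors and genes of the p53 axis was called.

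The share of genes called differed with depth. Among the 16233 callable genes, 4.72% of those with 20 to 49 reads over both libraries were higher and 3.75% lower. At 200 reads or more 15.4% were higher and 1.74% lower, and of those 97 higher genes 28 belonged to the chromosome 15 run. Well-covered genes outside that run, such as Sox11 and Mfhas1, had narrow intervals, as given above.

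Markers of cell types were read in the same way. Of 6 mesenchymal markers Twist1, Snai1 and Snai2 were lower and none higher, and their summed H3K4 signal was 524 RPM (reads scaled to the sum of the library) in mK4 and 736 RPM in mK3, against 450 in mK4 and 430 in mK3 in input. Of 6 epithelial markers the 4 that could be called were not past 2-fold, with a sum of 162 RPM in mK4 and 158 in mK3, near the input sums of 158 in mK4 and 154 in mK3. None of the callable blood or endothelial markers was called. No marker of the 5 lists was at 0 reads in either H3K4 library, and signal of this kind at input level does not tell whether a cell type is there.

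The H3K27 libraries of the same lines were set beside the genes that passed in all 3 forms. Over all callable genes, H3K27 was at least 2-fold lower in mK4 at 3.61% and at least 2-fold higher at 4.3%. Of the 74 genes with higher H3K4, H3K27 was 2-fold lower in 6 (8.11%) and 2-fold higher in 2. The 6 were Nog, Pax2, Pdgfb, Tnfrsf21, Nap1l5 and a clone-named gene. Nog had 22 H3K27 reads in mK4 and 84 in mK3, Pax2 had 9 in mK4 and 33 in mK3, and Pdgfb had 22 in mK4 and 85 in mK3. In these genes more H3K4 signal in mK4 stood beside less H3K27 signal. Sox11, outside that set, had 66 H3K27 reads in mK4 and 168 in mK3. Irx1 showed no such difference, with 8 in mK4 and 9 in mK3.

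Of the 82 genes with lower H3K4, H3K27 was 2-fold higher in 2, Snai1 and Tgfb1i1, and 2-fold lower in 3, among them Gpc3 and Dtx3. Snai1 had 17 H3K27 reads in mK4 and 7 in mK3. Twist1 had 22 in mK4 and 20 in mK3, so its H3K27 counts were nearly equal. The median H3K27 log2 ratio was 0.04 over the 74 genes and −0.15 over the 82, against −0.08 over all callable genes.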

How the data were processed

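Chromatin immunoprecipitation libraries labelled H3K4 of mK4 and mK3 were compared, with the input and H3K27 libraries beside them, 1 library per group. The deposited files hold whole read counts per gene over exons, per the file headers, and an RPKM value that the authors made from each count, its exon length and the sum of the library's counts. Recomputed RPKM values differed from the deposited ones by at most 4.2e-07, and RPKM was not used further. Exon length was deposited as a further column. Per the submitters' processing notes the genome build was mm9, and an aligner is not named in the sources used here.

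Of 22088 rows, the row with most reads was kept for each of 137 symbols with several rows, which left 151 rows out and 21937 genes. Counts were scaled to 513622 reads, the mean of the 6 library sums, and log2 ratios used a pseudocount of 5 scaled reads and a minimum of 20 H3K4 reads over both libraries. With 1 library a side no test and no count model was used. Fold changes given with an interval are ratios of shares without a pseudocount. Neighbours were taken in RefSeq gene order (GRCm38.p6, used for names, order and promoters; 19348 genes matched by symbol, 2305 by synonym, 284 unmatched). A check of promoter CpG over all genes was void, since 77.8% of callable genes had a promoter entry. The calling step was tried on simulated counts, with changes larger than 2-fold planted in well-covered genes only. Input differences were not simulated, so this trial does not cover calls near 2-fold, at few reads or on chromosomes where input differs. Python 3.11.15, numpy 2.4.6, pandas 2.3.3 and scipy 1.17.1 were used.

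Named genes were the 15 with the largest and the 15 with the smallest ratio among called genes with at least 50 reads, 10 in each direction also past 2-fold with own input subtracted, up to 3 per gene list by absolute ratio, and Irx1, Nog, Sox11, Twist1 and Hoxc11, leaving out clone-named, small RNA and X or Y genes. Other named list members were chosen after their values were seen. The members and the 54 lists were chosen with earlier results of these data known. Some genes that the rule names are not reported here. The scaling, pseudocount, minimum, rows per symbol, fold, input background and chromosomes were varied.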

Additional observations from a re-analysis of the deposited data

How the results depend on the processing

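No paired analysis was possible because each group has 1 library and no replicate number is shared. The number of genes at least 2-fold higher in mK4 was 845 and the number lower 520. With a pseudocount of 1 they were 1339 higher and 971 lower, and with 10 they were 505 and 221. A minimum of 50 reads gave 551 higher and 286 lower. A threshold of 1.5-fold gave 2245 higher and 2290 lower, and one of 3-fold gave 146 and 52. Subtracting own input gave 1118 higher and 1120 lower genes. Chromosome input gave 419 and 505, which shared 270 and 249 with the plain calls, and neighbour input gave 393 and 360, which shared 148 and 179 with them. The share of higher genes among calls was 61.9% on the plain ratio, 45.3% with chromosome input and 52.2% with neighbour input. Leaving out chromosomes 3, 7, 14 and X and the chromosome 15 run left 226 higher and 417 lower. Centring the ratios on their median gave 963 higher and 425 lower, and the other scaling and row choices moved the counts by less than 1.5 times.

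Of 112 named genes past 2-fold, 16 changed sign with own input subtracted: Fstl3 (0.20), Msx1 (0.42), Amacr (−0.056), Cdh6 (−0.35), Drosha (−0.43), Pdzd2 (−0.12), Ranbp3l (−1.81), Slc45a2 (−0.24), Tars (−0.022), Mcl1 (−0.14), Uncx (−0.24), Peg3 (−0.61), Foxf1a (−0.37), Psma5 (−0.90), Psmg3 (−0.21) and Kdm5c (−0.41), all log2 ratios. With neighbour input subtracted 9 did: Amacr (−0.094), Rad1 (−0.037), Rxfp3 (−0.022), Tars (−0.043), Lfng (−0.039), Uncx (−0.22), Psma5 (−0.28), Psmg3 (−0.24) and Foxr2 (−0.41). Under each of these settings another 46 genes kept their direction and were under 2-fold. The cause was not tested, and input reads are given above for many of these genes but not for all. Depth limits these data, since a gene of 20 to 49 reads carries a wide interval.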
